A study of Mus musculus with 12 samples.

Results

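The genes described here are 10 readouts of the integrated stress response in mouse left ventricle after myocardial infarction. They are the transcription factor genes Atf4, Atf3 and Ddit3, the feedback gene Trib3, and Chac1, which encodes an enzyme that degrades glutathione. The others are the amino acid and one-carbon enzyme genes Asns, Psat1 and Mthfd2, and the secreted hormone genes Gdf15 and Fgf21. All were chosen by symbol, as the 10 genes of these names in a count table of 56748 rows. Of the 10, 9 passed the filter on low counts and were tested among 15742 genes, and Fgf21 did not pass it. Ddit3 also has a second row, which was listed at 0 in every library.

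RNA came from left ventricles of C57BL/6J mice, labelled wild type, that were given an AAV9 vector through the tail vein and then surgery. In the first group the vector carried Irx3, a homeobox transcription factor gene, and infarction was induced by ligating the left anterior descending (LAD) coronary artery. In the second group mice with a control vector had the same ligation, and in the third mice with the control vector had sham surgery. Each group has 4 libraries, tissue was taken at day 14 in all of them, and every mouse carried AAV9. For the vectors' promoter and dose, and for the zone of the ventricle sampled, the sources used here give nothing. No mice had Irx3 vector and sham surgery together, so its comparison is within infarcted hearts. The groups are called Irx3 infarct, control infarct and sham below. Nothing in the labels names the animal of a library beyond its group number, so p-values measure the spread between these libraries.

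In the integrated stress response, the kinases PERK, GCN2, PKR and HRI phosphorylate the translation factor eIF2alpha, which lowers general protein synthesis while the ATF4 protein is made in larger amounts. ATF4 pairs with other basic leucine zipper proteins and activates genes of amino acid synthesis and uptake, and it also switches on genes that limit the response. In heart muscle the pathway is known to be engaged by mitochondrial dysfunction, and GDF15 and FGF21 are hormones released by stressed tissue. Much of the control of ATF4 acts on translation, which RNA levels do not show.

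Total counts ran from 13352604 to 19236721 in Irx3 infarct libraries, from 16081360 to 18738571 in control infarct libraries and from 15966982 to 18441830 in sham libraries. Irx3 itself was at 285 to 513 CPM (read counts scaled by library size and TMM factors) in Irx3 infarct, 16.8 to 30.5 in control infarct and 20.5 to 25.9 in sham libraries. Mitochondrially encoded genes took 10.4% to 19% of counts in Irx3 infarct, 0.926% to 5.64% in control infarct and 4.5% to 8.22% in sham libraries. The labels name the cell type as cardiomyocytes, yet markers of other cells were present in all groups. The summed level of 8 fibroblast markers was 3770 to 25200 CPM in Irx3 infarct, 13000 to 36200 in control infarct and 634 to 816 in sham libraries. The summed level of 9 cardiomyocyte markers was 27900 to 52600, 25400 to 59100 and 88600 to 106000 CPM in the same order of groups. The 9 macrophage markers summed to 766 to 1510, 1170 to 2790 and 364 to 445 CPM. The tissue was therefore read as ventricle of mixed cell types, from a zone that is not stated. In it fewer cells of a type, less RNA per cell and a difference in the zone sampled cannot be told apart.

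A motif bound by ATF4 with C/EBP partners, written here as TGATGNAA, was looked for on both strands of the RefSeq promoters of the 10 genes. The windows run from 250 bases before to 50 bases after each start on GRCm38.p6, and all 10 genes had 1 or more, 12 in all. The motif was found in 5 of the 12 promoters, each of a different gene, against 3.97% of the 32851 mouse promoters of the same length. The 10 genes were chosen as readouts of this response, so these shares are no test of enrichment. The full cyclic AMP element TGACGTCA, which ATF family dimers can also bind, was in none of the 12 promoters and in 1.79% of all promoters. The 5 matches are printed because they stand in genes that behaved differently from each other in the results. Each is a 30-base window on the strand of its gene with the match in capitals, read as its reverse complement in all but Asns.
Atf3, chr1:191183425-191183454, minus strand: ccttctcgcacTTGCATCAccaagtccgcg
Trib3, chr2:152344028-152344057, minus strand: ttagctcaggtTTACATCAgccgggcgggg
Asns, chr6:7693214-7693243, minus strand: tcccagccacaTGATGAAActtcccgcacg
Chac1, chr2:119351038-119351067, plus strand: cttccctgccgTTGCATCActcctgccagg
Fgf21, chr7:45615611-45615640, minus strand: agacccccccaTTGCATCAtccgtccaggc
The matched letters were TGATGCAA in Atf3, Chac1 and Fgf21, TGATGTAA in Trib3 and TGATGAAA in Asns. Counted from the start site, the match begins at base -193 in Chac1, -139 in Fgf21, -110 in Atf3, -23 in Asns and 15 in Trib3. A match is a description of these letters, and no binding was measured.

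Gdf15, which encodes the stress hormone of the TGF-beta superfamily, had the widest range of the 10 genes. It was at 19.4, 15.7, 20.6 and 12.4 CPM in Irx3 infarct libraries, at 184, 48.7, 183 and 135 CPM in control infarct libraries and at 1.97, 2.01, 1.71 and 1.74 CPM in sham libraries. The 3 groups did not overlap, and Irx3 infarct lay between the others. The second control infarct library was the lowest of its group and still above every Irx3 infarct library. Fgf21, which encodes the endocrine fibroblast growth factor made mainly by liver, was barely detected. It had 2, 2, 1 and 0 counts in Irx3 infarct libraries, 4, 6, 10 and 5 in control infarct libraries and 0, 1, 2 and 1 in sham libraries. All 4 control infarct libraries lay above all 8 of the others.

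Atf4, the gene of the response's central transcription factor, was at 70.2, 56.8, 63.3 and 78.4 CPM in Irx3 infarct, 95.3, 89.2, 96.3 and 106 CPM in control infarct and 59.5, 77, 73.9 and 64.2 CPM in sham libraries. Its Irx3 infarct and sham libraries overlapped, and control infarct lay above both. Ddit3, which encodes the pro-apoptotic factor CHOP, was at 28.5, 36.1, 20.6 and 23 CPM in Irx3 infarct, 46.4, 25.4, 37.9 and 45.2 CPM in control infarct and 14.3, 17.5, 16.5 and 15.6 CPM in sham libraries. Atf3, a repressor induced by many stresses, was at 17.5, 17, 14.8 and 23.2 CPM in Irx3 infarct, 21.3, 32.3, 25.3 and 13.2 CPM in control infarct and 4.49, 8.6, 6.48 and 7.09 CPM in sham libraries. For both genes the 2 infarct groups overlapped and both stood above sham. Exons of Mars and Gm4189 on the other strand cover 68 and 13 of the 1713 exonic bases of Ddit3 in GENCODE M21. Whether counting used the strand is not stated in these sources, so reads in those bases may belong to either gene.

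Trib3, a pseudokinase that binds ATF4 and dampens it, was at 4.59, 6.8, 5.45 and 2.2 CPM in Irx3 infarct, 19.1, 10.2, 20.4 and 20 CPM in control infarct and 7.51, 5.4, 5.94 and 5.77 CPM in sham libraries. Control infarct lay above both other groups, which overlapped. Chac1, an enzyme that degrades glutathione, had another order. It was at 3.6, 5.6, 3.38 and 2.13 CPM in Irx3 infarct, 28.1, 16.3, 19.9 and 17 CPM in control infarct and 28.4, 35.2, 41.6 and 31.6 CPM in sham libraries. Sham was highest and Irx3 infarct lowest, and no 2 groups overlapped, although the highest control infarct library at 28.1 CPM came close to the lowest sham library at 28.4 CPM.

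Mthfd2, the mitochondrial folate enzyme of one-carbon metabolism, was at 18.2, 17.6, 11.3 and 8.66 CPM in Irx3 infarct, 24.7, 21.2, 33 and 38.8 CPM in control infarct and 2.18, 3.01, 1.91 and 2.71 CPM in sham libraries. No 2 groups overlapped. Asns, asparagine synthetase, was at 6.42, 6.23, 5.01 and 2.43 CPM in Irx3 infarct, 8.85, 5.67, 10.5 and 12.4 CPM in control infarct and 1.4, 2.83, 1.02 and 1.39 CPM in sham libraries. Irx3 infarct library 4 lay within the sham range and control infarct library 2 within the Irx3 infarct range. Psat1, the transaminase of serine synthesis, was at 8.29, 7.47, 6.64 and 8.28 CPM in Irx3 infarct, 8.75, 7.14, 13.3 and 9.97 CPM in control infarct and 5.41, 3.27, 1.91 and 2.09 CPM in sham libraries. The 2 infarct groups overlapped, and both lay above sham.

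**Figure D1:**
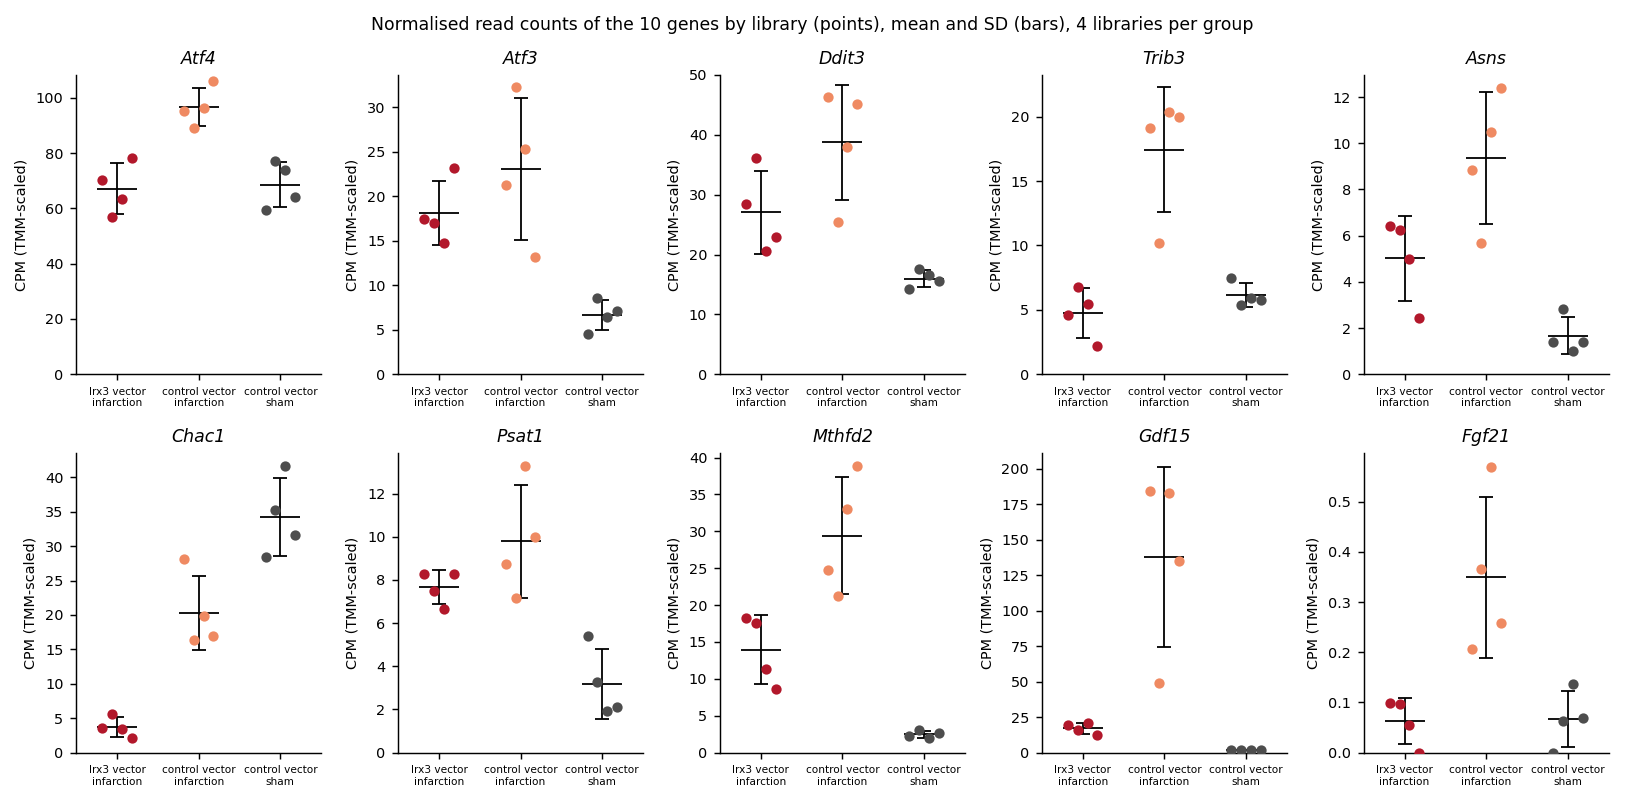
Normalised read counts (CPM, linear axis from 0, a scale of its own for each gene) of the 10 genes in Irx3 infarct, control infarct and sham, with 1 point per library and bars for the mean and SD of 4 libraries. Control infarct is the highest group for every gene but Chac1, where sham is highest, and for Gdf15 the control infarct mean is 138 CPM against 17 CPM in Irx3 infarct and 1.85 CPM in sham.

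Per kilobase of the longest protein-coding transcript, and without correction for GC content, the order of the genes differed between groups. Fold changes with Irx3 vector ran with GC content, as described below, and its part in this order was not tested. In control infarct Gdf15 stood first at 89.2 ± 41.2 CPM per kb (SD, n = 4), followed by Atf4 at 56.1 ± 4.1 and Ddit3 at 43.5 ± 10.8, and the SD ranges of neighbours in this order overlapped. In Irx3 infarct Atf4 was first at 39 ± 5.37, then Ddit3 at 30.4 ± 7.71, Gdf15 at 11 ± 2.41 and Atf3 at 9.13 ± 1.8, and the SD ranges of Atf4 and Ddit3 overlapped, as did those of Gdf15 and Atf3. In sham Atf4 at 39.8 ± 4.74 led, followed by Chac1 at 20.9 ± 3.45 and Ddit3 at 17.9 ± 1.56, whose SD ranges overlapped, and Gdf15 was at 1.2 ± 0.1. Fgf21 was last in every group, at 0.0654 CPM per kb in Irx3 infarct, 0.368 in control infarct and 0.0707 in sham.

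The comparison of control infarct with sham asks what infarction did under the control vector. Of the 9 tested genes, 8 rose and Chac1 fell, and none of the 9 had overlapping groups. Gdf15 rose 74-fold and Mthfd2 11.9-fold, while Atf4 rose only 1.41-fold. Over all 15742 genes edgeR's quasi-likelihood test called 48.7% at an adjusted p under 0.05, with 26.3% higher and 22.4% lower. Groups stood fully apart for 24.5% of genes in the higher direction and for 22.8% in the lower one. The median log2 fold change was 1.63 over the 9 genes and 0.01 over all genes. With a correction for GC content, described below, the same counts were 8 and 1, against 29.9% of all genes higher and 23.2% lower, 53.1% in all.

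Among the transcription factors, the log2 fold change between control infarct and sham was 0.50 for Atf4 (SE 0.12, edgeR adjusted p = 0.00541), 1.28 for Ddit3 (SE 0.21, adjusted p = 0.000315) and 1.78 for Atf3 (SE 0.27, adjusted p = 0.000196). The enzyme genes had larger fold changes than Atf4, with 1.63 for Psat1 (SE 0.30, edgeR adjusted p = 0.000742), 2.48 for Asns (SE 0.37, adjusted p = 0.000209) and 3.58 for Mthfd2 (SE 0.29, adjusted p = 9.75e-06). Trib3 and Chac1 went opposite ways. Trib3 rose 2.83-fold (log2 1.5, SE 0.29, edgeR adjusted p = 0.00112), and Chac1 fell 1.68-fold (log2 -0.75, SE 0.24, adjusted p = 0.0196). The call of Chac1 was lost without sham library 3, with -0.65 on the log2 scale and an edgeR adjusted p of 0.0631.

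Of the hormone genes, Gdf15 rose by 6.21 on the log2 scale (SE 0.41, edgeR adjusted p = 5.98e-06) in control infarct over sham. Fgf21 had 25 counts over the 4 control infarct libraries and 4 over the 4 sham libraries, a ratio of 5.09 after scaling (95% exact interval 1.76 to 20.1, counting error only). Its exact two-sided permutation test on CPM gave p = 0.0286, the smallest that 4 libraries against 4 allow. Without any 1 of the sham libraries the exact permutation p was 0.0571, with differences of 0.26 to 0.306 CPM. Without any 1 of the control infarct libraries it stayed at 0.0286, with differences of 0.209 to 0.331 CPM. With no filter on low counts edgeR put Fgf21 at log2 2.26 (SE 0.91) and an adjusted p of 0.0757. Beside these rises, 8 of 8 fibroblast and 9 of 9 macrophage markers rose and 7 of 9 cardiomyocyte markers fell in the same comparison. The part of cell composition in the stress genes was not tested.

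The comparison of Irx3 infarct with control infarct asks what the Irx3 vector did in infarcted hearts. Of the 9 tested genes 7 fell and none rose, and Atf3 and Psat1 did not pass the threshold. Gdf15 fell 8.08-fold, Chac1 5.45-fold and Trib3 3.62-fold. edgeR called 49.3% of all genes, with 25.2% higher and 24.1% lower. In 5 of the 9 genes every Irx3 infarct library lay below every control infarct library, which held for 18.9% of all genes. The median log2 fold change was -0.89 over the 9 genes and 0 over all genes.

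In this comparison Gdf15 fell by 3.01 on the log2 scale (SE 0.33, edgeR adjusted p = 3.96e-05) and Chac1 by 2.45 (SE 0.26, adjusted p = 3.23e-05). Trib3 followed at -1.86 (SE 0.30, edgeR adjusted p = 0.000302) and Mthfd2 at -1.07 (SE 0.25, adjusted p = 0.00338). Atf4 fell 1.44-fold (log2 -0.53, SE 0.12, edgeR adjusted p = 0.00371). Asns at -0.89 (SE 0.34, edgeR adjusted p = 0.0443) and Ddit3 at -0.52 (SE 0.20, adjusted p = 0.0468) were close to the threshold and had overlapping groups. Ddit3 lost its call when any 1 of libraries 1, 3 or 4 of either infarct group was left out, with log2 values of -0.54 to -0.40. Asns lost its call without control infarct 1, 3 or 4 or Irx3 infarct 2, 3 or 4, with values of -0.99 to -0.67. Atf3 was at -0.35 (SE 0.25, edgeR adjusted p = 0.271) and Psat1 at -0.35 (SE 0.28, adjusted p = 0.319). Fgf21 had 5 counts in Irx3 infarct and 25 in control infarct, a ratio of 0.2 (95% exact interval 0.0599 to 0.533, exact permutation p = 0.0286). Without any 1 of the Irx3 infarct libraries that p was 0.0571, with differences of -0.3 to -0.267 CPM. Without any 1 of the control infarct libraries it stayed at 0.0286, with differences of -0.336 to -0.214 CPM. For Fgf21 edgeR with no filter gave an adjusted p of 0.0631.

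Fold changes of all genes in this comparison ran with the GC content of their transcripts. Over 15182 genes with a known sequence the Spearman correlation between log2 fold change and GC content was -0.66, against -0.45 in Irx3 infarct over sham and 0.04 in control infarct over sham. Genes are not independent replicates, and these values describe the libraries. With genes split into 10 equal bins by GC, the median log2 fold change of Irx3 infarct over control infarct was 1.19 in the lowest bin (22.1% to 41.8% GC) and -0.67 in the highest (58.2% to 78.3%). The 10 stress genes span 47.7% GC in Asns to 61.3% in Gdf15, around a median of 50.2% for all genes. Gdf15, Trib3 at 58.2% and Chac1 at 57.4% are the richest in GC.

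With a correction for GC content in each library, 5 of the 9 genes fell in Irx3 infarct against control infarct and none rose, where 25.2% of all genes were called, 13.1% higher and 12.1% lower. Gdf15 was then at a log2 fold change of -2.30 (edgeR adjusted p = 0.000354), Chac1 at -1.85 (adjusted p = 0.000234) and Trib3 at -1.21 (adjusted p = 0.0075). Mthfd2 at -1.06 (edgeR adjusted p = 0.0118) and Asns at -1.08 (adjusted p = 0.0449), both near the median in GC, stayed close to their uncorrected values. Atf4 was at -0.13 (edgeR adjusted p = 0.409) and Ddit3 at -0.02 (adjusted p = 0.949), so the fall of both transcription factor genes was not called after the correction. Atf3 was at -0.11 (edgeR adjusted p = 0.782) and Psat1 at -0.46 (adjusted p = 0.254). Markers of other cells moved in this comparison too. Without the correction 4 of 9 macrophage markers were lower and none higher (median log2 fold change -0.77), 5 of 7 endothelial markers were lower and 2 higher, and 1 of 8 fibroblast markers was lower. Of the 9 cardiomyocyte markers 1 was higher and 2 were lower. With the correction no macrophage marker was called (median -0.32), 3 endothelial markers were lower and 1 higher, 2 fibroblast markers were lower and 1 cardiomyocyte marker was higher. The part of these cells in the fall of the stress genes was not tested. The share of mitochondrially encoded counts also separated the 2 groups. With those genes removed and no GC correction, 7 of the 9 genes were called, beside 7756 of all 15845 genes tested. Removing them changes how the libraries are scaled, and the part of the mitochondrial difference in the stress genes was not tested.

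**Figure D2:**
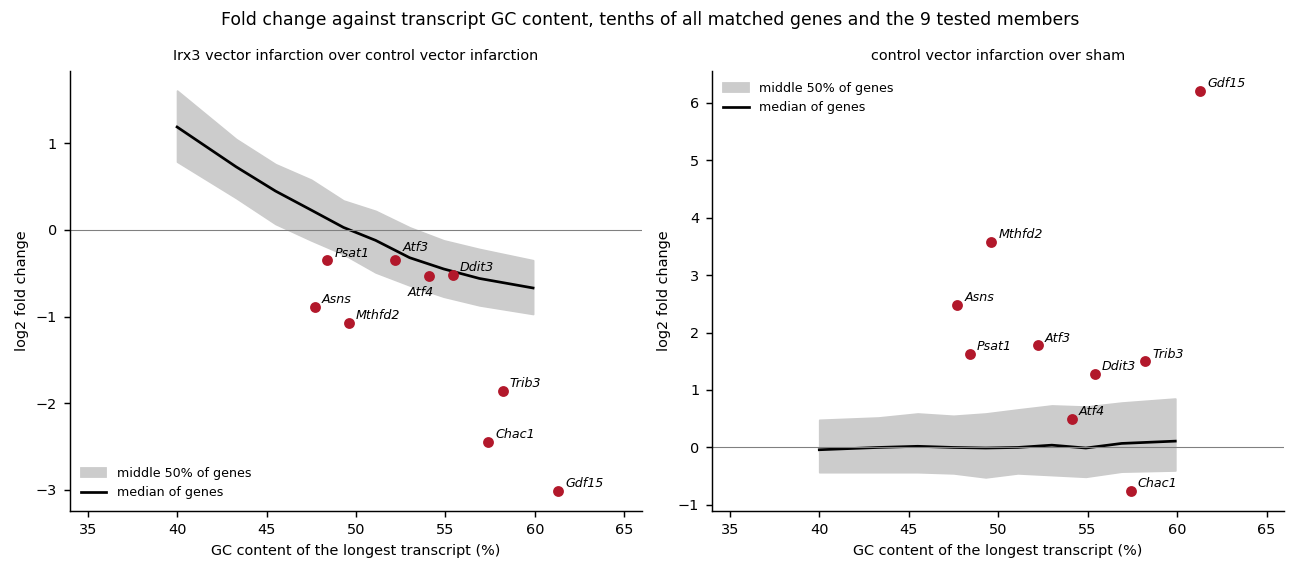
Log2 fold change (linear axis) against GC content (%) of the longest transcript, taken among protein-coding transcripts where there were any. Irx3 infarct over control infarct is on the left and control infarct over sham on the right. The line is the median and the band the middle 50% of genes in each of 10 GC bins, and the points are the 9 tested genes. On the left Atf4 and Ddit3 lie on the slope of all genes, while Gdf15, Chac1, Trib3, Mthfd2, Asns and, by less, Psat1 lie below the band, and on the right the median stays near 0 at every GC content.

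The comparison of Irx3 infarct with sham shows where the genes stood relative to hearts with neither infarction nor Irx3 vector. Of the 9 tested genes 6 were higher and 1, Chac1, lower, against 35.2% and 27.7% of all genes and 62.9% in either direction. The medians were 1.27 over the 9 genes and 0.12 over all genes. Every Irx3 infarct library lay above every sham library for 5 of the 9, which held for 33.2% of all genes, and below for Chac1, which held for 27.6%. With the GC correction 7 were higher and 1 lower, against 32.2% and 21.9% of all genes and 54.1% in either direction. This comparison shares its libraries with the other 2, so the values are set side by side and not correlated.

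Gdf15 was 9.16-fold higher in Irx3 infarct than in sham (log2 3.19, SE 0.38, edgeR adjusted p = 1.69e-05), and Mthfd2 5.68-fold higher (log2 2.5, SE 0.28, adjusted p = 1.15e-05). Asns at 1.59 on the log2 scale (SE 0.37, edgeR adjusted p = 0.00225), Psat1 at 1.27 (SE 0.30, adjusted p = 0.00234), Atf3 at 1.44 (SE 0.26, adjusted p = 0.000422) and Ddit3 at 0.76 (SE 0.20, adjusted p = 0.0055) were higher too. Chac1 was 9.17-fold lower (log2 -3.20, SE 0.27, edgeR adjusted p = 1.87e-06). With the GC correction Gdf15 was at 3.8 on the log2 scale, Mthfd2 at 2.61, Asns at 1.5 and Psat1 at 1.25. Atf3 was then at 1.75, Ddit3 at 1.26 and Chac1 at -2.61, and all of these stayed called. Trib3 was at -0.36 (SE 0.30, edgeR adjusted p = 0.313) and at 0.23 with the GC correction (adjusted p = 0.502). Atf4 was at -0.03 (SE 0.12, edgeR adjusted p = 0.839), and with the GC correction it was called higher at 0.41 (adjusted p = 0.00713). Fgf21 had 5 counts in Irx3 infarct and 4 in sham, a ratio of 1.02 (95% exact interval 0.219 to 5.13, exact permutation p = 0.886).

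**Figure D3:**
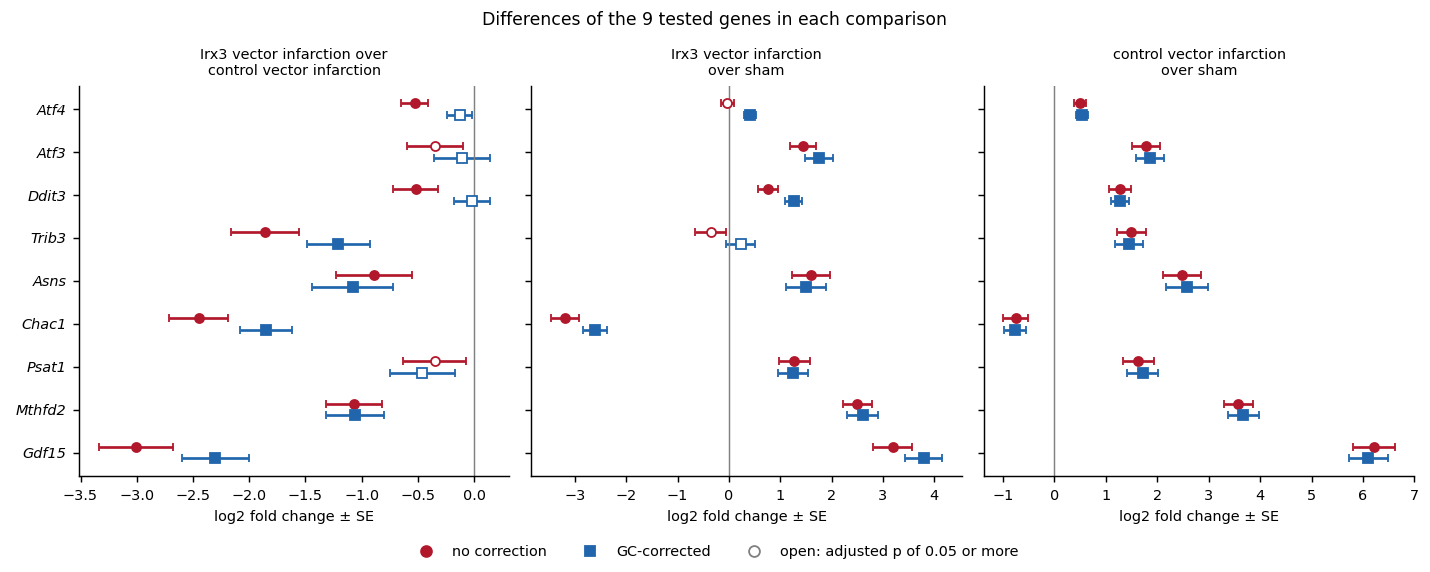
Log2 fold change ± SE of the 9 tested genes in 3 comparisons, Irx3 infarct over control infarct, Irx3 infarct over sham and control infarct over sham, each without correction (circles) and with GC correction (squares), where open symbols mark an edgeR adjusted p of 0.05 or more. Atf4 and Ddit3 move to -0.13 and -0.02 in the first panel with the correction, and Gdf15 keeps -2.30.

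Because several target genes had larger fold changes than Atf4, the log2 ratio of each gene to Atf4 within a library was compared as well, a choice made after the values were seen. The ratio is not per length, so only its difference between groups is read. Together 24 exact permutation tests were adjusted, and every test at the floor of 0.0286 shares the smallest adjusted p, 0.049. Relative to Atf4, Gdf15 was at -2 ± 0.45 in Irx3 infarct, 0.34 ± 0.86 in control infarct and -5.18 ± 0.21 in sham (SD, n = 4 libraries). All 3 of its differences reached an exact permutation p of 0.0286, adjusted to 0.049. Chac1 was at -4.25 ± 0.75 in Irx3 infarct, -2.28 ± 0.38 in control infarct and -1.01 ± 0.13 in sham, again with every difference at an adjusted 0.049 by exact permutation. The ratio of Ddit3 to Atf4 was -1.34 ± 0.49 in Irx3 infarct and -1.36 ± 0.33 in control infarct, a difference of 0.02 (exact permutation p = 0.943), and both stood above -2.1 ± 0.06 in sham. The Trib3 ratio differed by -1.39 between Irx3 and control infarct, with an exact permutation p of 0.0571 (adjusted 0.0762). For Mthfd2 the difference was -0.57, for Asns -0.4, for Atf3 0.24 and for Psat1 0.21, with exact permutation p of 0.171, 0.457, 0.629 and 0.314. These ratios moved with the GC correction. Atf4 is at 54.1% GC and the 3 enzyme genes are at 47.7% to 49.6%. With it the differences between Irx3 and control infarct were -2.06 for Gdf15, -1.76 for Chac1, -1.15 for Trib3, -0.94 for Mthfd2, -0.98 for Asns, 0.12 for Ddit3 and 0.09 for Atf3, and Psat1 changed sign to -0.29. The exact permutation p of Gdf15 and Chac1 was 0.0286 again in all 3 comparisons, and no ratio passed the adjustment with the correction. The adjusted value at that floor became 0.0527 because Psat1 in Irx3 infarct over sham left the floor, with an exact permutation p of 0.114. Neither 0.049 nor 0.0527 therefore says anything particular about Gdf15 or Chac1. The exact permutation p of Mthfd2 was 0.0571 and that of Asns 0.0857 between Irx3 and control infarct.

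After group means were subtracted, some genes deviated together over the 12 libraries. Asns and Mthfd2 had the closest course (Pearson r = 0.89), followed by Trib3 with Gdf15 (0.69), Trib3 with Chac1 (0.68) and Ddit3 with Chac1 (0.67). Atf4 did not share it, at -0.49 with Trib3, -0.03 with Asns and 0.08 with Gdf15, and Atf3 with Trib3 was at -0.67. These points share libraries and depth and serve as description. Control infarct library 2 was the lowest of its group for all tested genes but Atf3, and it had the highest mitochondrial share of that group, 5.64%. Irx3 infarct library 4 was the lowest of its group for Gdf15, Chac1, Trib3, Asns and Mthfd2, and had the highest mitochondrial share of all, 19%.

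Upstream of Atf4, the 9 genes for the eIF2alpha kinases, eIF2alpha itself, its phosphatase subunits and the mitochondrial relay were called 3 higher and 3 lower in control infarct against sham. Counts in this and the following lists stand beside 26.3% of all genes higher and 22.4% lower in control infarct over sham, and 25.2% and 24.1% in Irx3 over control infarct, or 13.1% and 12.1% there with the GC correction. At 3 of 9 each way the upstream genes were near that share. In several lists the genes called with the GC correction were not all among those called without it. Eif2ak2, the gene of PKR, rose to 26.6 ± 4.41 CPM in control infarct, against 6.47 ± 1.33 in sham (log2 2.04, SE 0.26, edgeR adjusted p = 6.76e-05), and Eif2ak3, the gene of PERK, rose by 0.99 on the log2 scale (SE 0.15, adjusted p = 0.000215). Dele1 and Oma1, whose products signal mitochondrial stress to HRI, fell by 1.44 (SE 0.24, edgeR adjusted p = 0.000371) and 1.07 (SE 0.19, adjusted p = 0.000502). With Irx3 vector 3 of the 9 were higher and 1 lower than in control infarct, and 1 and 1 after the GC correction. The lower one was Ppp1r15a, which encodes the GADD34 subunit that removes phosphate from eIF2alpha. It averaged 22.5 ± 1.56 CPM in Irx3 infarct and 66.3 ± 3.08 CPM in control infarct (log2 -1.56, SE 0.12, edgeR adjusted p = 5.76e-06, GC-corrected -1.05). In control infarct over sham it was at 0.03 (edgeR adjusted p = 0.852). Eif2s1, the gene of eIF2alpha, was higher at 1.44 (SE 0.21, edgeR adjusted p = 0.000174) and at 0.45 after the correction (adjusted p = 0.0266). Eif2ak2 was higher by 1.00 without it (SE 0.24, edgeR adjusted p = 0.00392) and was at 0.38 with it (adjusted p = 0.207).

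Among 10 dimer partners of ATF4 and other stress regulators, 5 rose and 2 fell in control infarct, and 2 rose and 6 fell in Irx3 infarct against control infarct, or 0 and 4 with the GC correction. Nupr1, a stress-induced chromatin protein gene, rose by 4.08 on the log2 scale in control infarct over sham (SE 0.46, edgeR adjusted p = 4.1e-05). Stc2, the gene of a secreted glycoprotein, averaged 110 ± 34.6 CPM in control infarct and 17.6 ± 1.53 CPM in sham (log2 2.64, SE 0.20, edgeR adjusted p = 8.66e-06). In Irx3 infarct Stc2 averaged 21.4 ± 3.06 CPM, below control infarct (log2 -2.36, SE 0.20, edgeR adjusted p = 9.78e-06, GC-corrected -2.17). Ddit4, the gene of the mTORC1 inhibitor REDD1, averaged 29.4 ± 5.12 CPM in Irx3 infarct, 331 ± 53 CPM in control infarct and 514 ± 120 CPM in sham. It was lower in control infarct than in sham (log2 -0.63, SE 0.19, edgeR adjusted p = 0.0144). Irx3 infarct lay lower again than control infarct (log2 -3.49, SE 0.21, edgeR adjusted p = 1.28e-06, GC-corrected -2.86). Jdp2, a repressor that dimerises with bZIP factors, fell by 1.82 in Irx3 infarct against control infarct (SE 0.23, edgeR adjusted p = 8.04e-05, GC-corrected -1.21). Atf5, a close relative of Atf4, rose by 1.05 in control infarct over sham (SE 0.21, edgeR adjusted p = 0.00133) and fell by 1.14 in Irx3 infarct against control infarct (SE 0.21, adjusted p = 0.000828, GC-corrected -0.45). Vldlr, a lipoprotein receptor gene, fell by 1.47 in control infarct (SE 0.20, edgeR adjusted p = 0.000126).

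The enzyme genes of serine, one-carbon, proline and transaminase pathways beside the members numbered 11. In control infarct 4 rose and 4 fell, and in Irx3 infarct against control infarct 5 fell and none rose, or 5 fell and 1 rose with the GC correction. Phgdh, which opens the serine pathway that Psat1 continues, averaged 19.3 ± 9.73 CPM in control infarct and 1.53 ± 0.421 CPM in sham (log2 3.65, SE 0.39, edgeR adjusted p = 2.92e-05). Mthfd1l, which acts after Mthfd2 in the mitochondrial folate path, rose by 2.44 (SE 0.20, edgeR adjusted p = 1.13e-05). With Irx3 vector Phgdh fell to 4.26 ± 1.68 CPM, against 19.3 ± 9.73 CPM in control infarct (log2 -2.18, SE 0.35, edgeR adjusted p = 0.000329, GC-corrected -1.54) and Mthfd1l to 3.81 ± 0.332 CPM, against 16.3 ± 4.45 CPM in control infarct (log2 -2.09, SE 0.20, adjusted p = 1.75e-05, GC-corrected -1.89). Shmt2, which makes glycine from serine in mitochondria, fell by 1.06 (SE 0.14, edgeR adjusted p = 0.000114, GC-corrected -0.45). Gpt2, a mitochondrial alanine transaminase gene, fell by 1.85 in control infarct against sham (SE 0.21, edgeR adjusted p = 3.7e-05).

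Amino acid transporter genes that were called went one way in each of these 2 comparisons. Of the 7 tested, 6 rose and none fell in control infarct, with a median log2 fold change of 1.19 against 0.01 over all genes. In Irx3 infarct against control infarct 5 fell and none rose (median -1.04 against 0), and 4 fell with the GC correction (median -0.69). Slc1a5, a glutamine transporter gene, averaged 64.4 ± 26.2 CPM in Irx3 infarct, 250 ± 111 CPM in control infarct and 44.7 ± 3.33 CPM in sham. Its log2 fold change was -1.96 in Irx3 over control infarct (SE 0.33, edgeR adjusted p = 0.000405, GC-corrected -1.36) and 2.49 in control infarct over sham (SE 0.33, adjusted p = 0.000108). Slc7a5, the leucine transporter subunit, rose by 1.51 in control infarct (SE 0.24, edgeR adjusted p = 0.000324) and fell by 1.26 with Irx3 vector (SE 0.24, adjusted p = 0.000962, GC-corrected -0.68). Slc3a2, its partner chain, fell by 1.04 with Irx3 vector (SE 0.17, edgeR adjusted p = 0.000344, GC-corrected -0.69), and Slc1a4 rose by 3.06 in control infarct (SE 0.44, adjusted p = 0.00015). Slc7a11, the cystine transporter gene, did not pass the filter. It had 226, 18, 9 and 3 counts in Irx3 infarct libraries, 0, 4, 7 and 63 in control infarct libraries and 0, 3, 3 and 0 in sham libraries, so 1 library of each infarct group held most of its counts.

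Of 16 cytosolic aminoacyl-tRNA synthetase genes, many of them targets of ATF4, 2 rose and 3 fell in control infarct (median log2 fold change 0.11), and 1 rose and 7 fell with Irx3 vector (median -0.16), or 0 and 4 of 15 with the GC correction. The counts in control infarct lie below the share of all genes, and those with Irx3 vector are below it for rises and above it for falls. Iars, for isoleucine, fell by 0.41 in control infarct (SE 0.09, edgeR adjusted p = 0.0026), and Kars, for lysine, fell by 0.57 (SE 0.13, adjusted p = 0.00326). Mars1, for methionine, whose exons overlap Ddit3, fell by 0.84 with Irx3 vector (SE 0.12, edgeR adjusted p = 0.000134) and had no GC value. Cars, for cysteine, fell by 0.69 with Irx3 vector (SE 0.11, edgeR adjusted p = 0.000329, GC-corrected -0.33). Vars, for valine, fell by 0.92 (SE 0.15, edgeR adjusted p = 0.000331) and was at -0.23 after the correction (adjusted p = 0.0637).

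Of 18 genes of the ATF6 and XBP1 arms of the unfolded protein response 4 rose and 3 fell in control infarct, and 8 rose and 2 fell in Irx3 infarct against control infarct, or 6 and 2 with the GC correction. Among the rises the correction added Xbp1 (0.50) and Hyou1 (0.53) and took away Hspa5, Dnajc3, Pdia4 and Sel1l. Among the falls Atf6 (-0.60, edgeR adjusted p = 0.00581) took the place of Ern1. The control infarct counts are below the share of all genes, and those with Irx3 vector are above it for rises and below it for falls. Hsp90b1, the chaperone GRP94, averaged 241 ± 26.4 CPM in Irx3 infarct and 85.1 ± 21.5 CPM in control infarct (log2 1.5, SE 0.18, edgeR adjusted p = 5.89e-05, GC-corrected 0.90). Dnajb9, an XBP1 target and co-chaperone, rose by 1.73 (SE 0.22, edgeR adjusted p = 8.52e-05, GC-corrected 0.72). Herpud1, a gene of endoplasmic reticulum degradation that ATF4 can also drive, averaged 87.5 ± 17.3 CPM in Irx3 infarct, 278 ± 50 CPM in control infarct and 900 ± 137 CPM in sham. It fell in control infarct (log2 -1.70, SE 0.20, edgeR adjusted p = 4.42e-05) and again with Irx3 vector (log2 -1.67, SE 0.20, adjusted p = 5.27e-05, GC-corrected -1.37), the same order of groups as Chac1. Edem1 rose by 1.34 in control infarct (SE 0.20, edgeR adjusted p = 0.000191).

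Of 8 mitochondrial chaperone and protease genes, none rose and 5 fell in control infarct (median -0.90), among them Clpp at -0.86 (SE 0.19, edgeR adjusted p = 0.00257). With Irx3 vector 2 rose and 2 fell, or 1 and 0 with the GC correction. Yme1l1, an inner membrane protease gene, was at 1.67 (SE 0.25, edgeR adjusted p = 0.000202) and at 0.35 after the correction (adjusted p = 0.061). Lonp1, the matrix protease gene, was at -0.95 (SE 0.17, edgeR adjusted p = 0.000525) and at -0.35 after it (adjusted p = 0.0592).

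Receptor genes for the 2 hormones were looked at in the same tissue. Gfral, the brainstem receptor of GDF15, had 0 counts in all 12 libraries. Klb, the co-receptor that FGF21 requires, had 11 counts over the Irx3 infarct libraries, 3 over the control infarct libraries and 4 over the sham libraries. Of the 5 receptor genes tested, 2 rose and 1 fell in control infarct, and none rose and 3 fell with Irx3 vector, or 2 with the GC correction. Fgfr1 averaged 115 ± 39 CPM in Irx3 infarct, 268 ± 99.9 CPM in control infarct and 71.3 ± 9.68 CPM in sham. Its log2 fold change was -1.22 in Irx3 over control infarct (SE 0.28, edgeR adjusted p = 0.00319), which was not called after the GC correction (-0.70, adjusted p = 0.0706). It was 1.91 in control infarct over sham (SE 0.29, edgeR adjusted p = 0.000217). Fgfr3 fell by 1.44 with Irx3 vector (SE 0.17, edgeR adjusted p = 5.17e-05, GC-corrected -0.90).

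**Figure D4:**
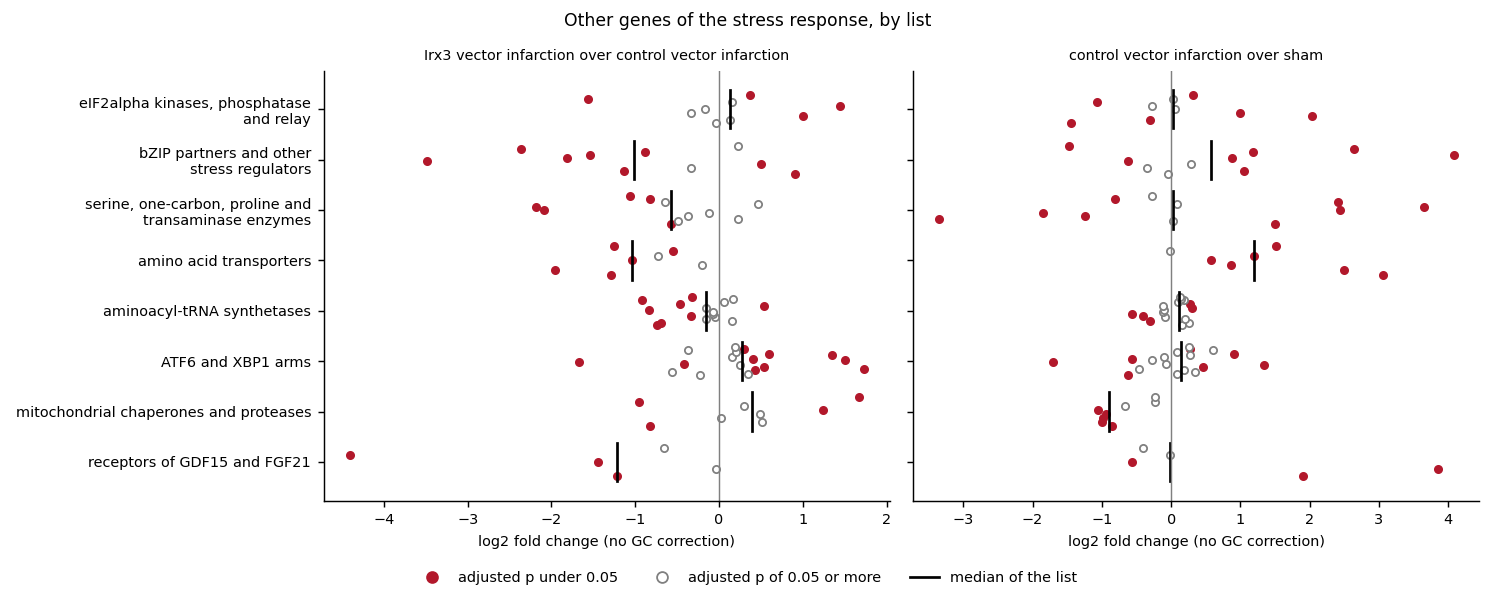
Log2 fold change (no GC correction, linear axis) of each tested gene in 8 lists of the wider stress response, for Irx3 infarct over control infarct on the left and control infarct over sham on the right; filled points have an edgeR adjusted p under 0.05 and bars are list medians. Amino acid transporters sit at a median of 1.19 on the right and -1.04 on the left, while the ATF6 and XBP1 arms sit at 0.14 and 0.27.

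The genes whose log2 CPM followed Gdf15 most closely over the 12 libraries were Cilp2 (Pearson r = 0.981), Rasl11b (0.979) and Ngef (0.978). Cilp2, a matrix protein gene, averaged 6.97 ± 5.89 CPM in Irx3 infarct, 77.3 ± 35.3 CPM in control infarct and 0.285 ± 0.0914 CPM in sham. Ngef averaged 4.19 ± 1.66, 13.1 ± 3.51 and 0.549 ± 0.229 CPM, and Rasl11b 41.5 ± 8.23, 80.8 ± 19.8 and 17 ± 2.5 CPM, in the same order of groups. Atf4 was followed most closely by Wnt5b (0.947), the ribosomal protein gene Rps19 (0.946) and Gm11353 (0.941). Rps19 averaged 97.7 ± 9.04 CPM in Irx3 infarct, 154 ± 14 CPM in control infarct and 104 ± 10.1 CPM in sham. All of these correlations include the differences between groups and carry no GC correction. With that correction Atf4 was at a log2 fold change of -0.13 in Irx3 over control infarct (edgeR adjusted p = 0.409). In Irx3 infarct over sham it was then at 0.41 (edgeR adjusted p = 0.00713).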

How the data were processed

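Polyadenylated RNA of left ventricles was sequenced in 12 libraries, and the authors deposited raw counts of reads for each gene in a table with a column per library. Per the submitters' processing notes the reads were trimmed with fastp and the build was GRCm39. Which aligner, counter, annotation and strand setting were used is not stated in these sources. All libraries carry the batch label 1. The members, lists and comparisons were chosen with earlier results of these data known.

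Counts were tested with edgeR 4.0.16 in R 4.3.3 by the quasi-likelihood test, with robust fitting, TMM factors, the filterByExpr filter and 1 term per group over 12 libraries, leaving 9 residual degrees of freedom. Adjusted p are Benjamini-Hochberg values over all 15742 genes, with a threshold of 0.05. CPM use TMM factors, and log2 CPM of single libraries a prior count of 1. The ratio to Atf4 added a pseudocount of 0.5. SE are the fold change over the root of F. The filter kept a gene through any 1 group, and rows repeating a symbol numbered 882. No 2 libraries of a group were duplicates.

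GC content and length came from the longest GENCODE M21 transcript of a symbol on GRCm38, taken among protein-coding transcripts where there were any, and matched for 15182 genes. The offset of each library was a natural spline on GC (6 degrees of freedom), fitted in 3 rounds to genes whose mean log2 CPM was 2 or more, leaving out residuals past 2.5 median absolute deviations. Other settings were RLE and upper-quartile factors, DESeq2 1.42.0, other filters, 2 groups only, mitochondrial genes removed, the replicate number as a block and each library left out. Leaving out the fourth library of both infarct groups, the scalings of Fgf21 and the GC correction of the ratio to Atf4 were added after seeing the data. Named beside the members were some of the 3 list genes with the smallest p in a comparison, or genes set beside a member by role. Markers of neutrophils, endothelium, pericytes and lymphocytes were measured too: neutrophil markers summed to 6.84 to 44.9 CPM in Irx3 infarct, 8.37 to 115 in control infarct and 2.81 to 7.91 in sham. Lymphocyte markers summed to 5.89 to 9.5, 3.17 to 8.78 and 0.772 to 1.43 CPM, endothelial ones to 992 to 1120, 1200 to 1640 and 1370 to 1540, and pericyte ones to 920 to 990, 857 to 1240 and 803 to 1060. Only the edgeR fit without GC correction was tried on simulated counts, which held no GC trend. The GC correction, the ratio to Atf4 and the permutation tests were not tried in that way. Intervals cover counting error only.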

Additional observations from a re-analysis of the deposited data

Results flagged for a closer look

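In 4 of the 132 groups of 4 libraries looked at, over members and named list genes, 1 library stood apart from the other 3 by Dixon's ratio, and chance gives about 1 in 20 groups. Trib3 was at 10.2 CPM in the second control infarct library and at 19.1 to 20.4 in the others. Eif2ak2 was at 85.7 CPM in the third Irx3 infarct library and at 38.7 to 46.1 in the others. Vldlr was at 191 CPM in the first Irx3 infarct library and at 306 to 309 in the others. Fgfr1 was at 85.7 CPM in the second sham library and at 64.9 to 67.4 in the others.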

How the results depend on the processing

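In control infarct against sham, 9 members were called in every setting but 1 (8 without the third sham library). In Irx3 infarct against control infarct 7 were called, also with RLE factors, DESeq2, other filters and mitochondrial genes removed, 5 with upper-quartile factors, with only these 2 groups, with the replicate block and with the GC correction, 4 with GC correction and replicate block together, and 5 to 7 without single libraries. Without the fourth library of both infarct groups 6 were called, with Atf3 gained (-0.68, edgeR adjusted p = 0.0153) and Ddit3 (-0.37) and Asns (-0.51) lost. Over all genes 7760 were called, 3828 with the GC correction and 2648 with it and the block. The replicate block took the calls of Ddit3 (-0.53) and Asns (-0.96). After group means were subtracted, same-numbered libraries correlated at -0.42 to 0.1. Of the 12 libraries, 0 correlated best with their own number in both other groups. What the numbers stand for is not stated in these sources. In Irx3 infarct against sham 7 were called, and 8 with the GC correction with or without the block. There Atf4, at -0.03, was at 0.00 under upper-quartile factors and changed sign under the GC correction (0.41), the correction with the block (0.40) and without sham library 2 only (0.02, single libraries left out -0.12 to 0.02), as did Trib3 under the correction without (0.23) and with the block (0.21), and the Fgf21 difference in mean CPM with total counts only (0.0146) and without sham library 3 or Irx3 infarct library 4 (single libraries left out -0.0274 to 0.0181). The ratio of Psat1 to Atf4 in Irx3 over control infarct changed sign with the GC correction (-0.29). The causes were not tested beyond these settings. The few counts of Fgf21 and Slc7a11 limit what depth can show.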
